A study of Rattus norvegicus with 18 samples.

Results

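Sensory neurons of the dorsal root ganglia (DRG) switch on a set of genes when their peripheral axons are cut, a state known as the axotomy response. The set includes transcription factors, neuropeptides and proteins of the growing axon, and it is widely used as a marker of neurons in a regenerating state. A cut within the brain, such as pyramidotomy, which divides the corticospinal tracts in the medulla, does not sever the axons of these neurons. Levels of 10 genes of this kind are described here in cervical DRG: the transcription factors Atf3, Jun and Sox11, the neuropeptides Gal, Vip and Npy, the axon growth proteins Gap43 and Sprr1a, the stress-response gene Gadd45a and the membrane endopeptidase gene Ecel1. They were found in the count table by their RefSeq symbols, and all 10 were present among 15075 identifiers.

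Poly(A) RNA came from C6-C8 DRG of 18 adult Lister hooded rats. The naïve group was 6 unoperated rats (41, 42, 43, 44, 45 and 49). The bPYX+GFP group was 6 rats (5, 15, 18, 21, 52 and 57) that received bilateral pyramidotomy and, the day after, AAV1-CMV-EGFP, a viral vector for green fluorescent protein, in the forelimb flexors of 1 side. The bPYX+NT3 group was 6 rats (2, 11, 17, 23, 39 and 40) with the same injury and AAV1-CMV-NT3, which encodes human neurotrophin-3, a growth factor for muscle afferents. DRG were taken 10 weeks after injury from the treated side and pooled for each rat, and the injured rats had also undergone behavioural testing, neurophysiology and nerve tracing. The naïve rats differed from the injured groups in surgery and vector as well as in injury, so these cannot be told apart, and the CMV promoter does not restrict the vector to 1 cell type.

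The groups are those of the count table, whose heading gives the rat number and the sample name. The counts deposited rat by rat equalled the table's column of the same rat number in 18 of 18 rats, but 17 of them are attached to a sample of another group. The attached counts run in ascending rat number, from rat 2 on the first naïve sample to rat 57 on the last bPYX+NT3 sample. The attached groups therefore mix rats of the table's groups. With the table's groups, Sprr1a had log2 fold changes of -1.11 (bPYX+GFP versus naïve) and 1.13 (bPYX+NT3 versus bPYX+GFP), the values that the study lists. The study counts Sprr1a among the mRNAs modified by pyramidotomy and normalized by NT3, with p under 0.05 in both comparisons. Group comparisons for the groups of the attached samples are given only to show the effect of that mismatch. Between 10057787 and 16002410 read-pairs per rat fell on genes. Levels are in CPM, counts scaled to a common library total after TMM normalization, and because they are not divided by transcript length they are compared between rats and not between genes. Summed markers of sensory neurons, which include Snap25, Prph and Scn10a, lay between 8658 and 11476 CPM in the 18 rats. The sum also holds the neurofilament genes Nefm and Nefh, with medians of 5416 and 2224 CPM. Both of these and Scn10a are among the genes that fall after axotomy, so the sum does not measure neuron content alone. In whole ganglia, fewer cells of a type and less RNA per cell cannot be told apart.

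Of the 10 genes, 9 were detected. Npy, the neuropeptide Y gene, had 1 read in all 18 rats, in bPYX+NT3 rat 17, out of 230544108 read-pairs. Its count of 0 in the other 17 rats allows a level of up to 0.298 CPM in the shallowest library and 0.187 CPM in the deepest (3 counts, counting error only), and no fold change is given for it. The other 9 genes passed the filter on low counts in all 3 comparisons (over 10 reads in at least 6 of 12 rats) and were tested in edgeR.

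Atf3, a stress-induced transcription factor and the most used marker of axotomised neurons, ranged from 8.09 to 93.9 CPM in naïve rats (median 55.5), from 17.5 to 55.8 in bPYX+GFP rats (median 34.3) and from 28.6 to 124.8 in bPYX+NT3 rats (median 40.02). Naïve rat 49 was the lowest of all rats, and rats 17, 11 and 42 were the highest, so the extremes lay in the naïve and bPYX+NT3 groups. Jun, a subunit of the AP-1 transcription factor, ranged from 73.6 to 119.7 CPM in naïve rats (median 94.4), from 69.6 to 94.9 in bPYX+GFP rats (median 84.8) and from 76.0 to 121.3 in bPYX+NT3 rats (median 90.5). Sox11, a transcription factor of developing and regenerating neurons, had medians of 8.56, 6.26 and 6.18 CPM in naïve, bPYX+GFP and bPYX+NT3 rats. Its highest level, 14.2 CPM in rat 17, was above the 5.70 to 6.95 CPM of the other 5 bPYX+NT3 rats. For each of the 3 transcription factor genes the groups overlapped in all pairs.

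Gal encodes galanin, a neuropeptide that is scarce in uninjured sensory neurons and rises after axotomy. It ranged from 2.24 to 34.8 CPM in naïve rats (median 18.5), from 5.20 to 19.4 in bPYX+GFP rats (median 11.4) and from 8.42 to 51.6 in bPYX+NT3 rats (median 15.8). Vip, the vasoactive intestinal peptide gene, was the most variable member. It ranged from 0.172 to 10.3 CPM in naïve rats, from 0.567 to 19.4 in bPYX+GFP rats and from 2.81 to 23.2 in bPYX+NT3 rats, and 2 reads lay behind its lowest value. The groups overlapped for both peptides.

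Sprr1a encodes a small proline-rich protein, known from squamous epithelium, that is strongly induced in axotomised neurons. Its counts were low, from 0 to 57 reads in naïve, 4 to 19 in bPYX+GFP and 8 to 60 in bPYX+NT3 rats. The levels ranged from 0 to 3.41 CPM (median 1.96), from 0.378 to 1.43 CPM (median 0.922) and from 0.613 to 4.58 CPM (median 1.56) in the same order. Rat 49 had 0 of 12067913 read-pairs on Sprr1a, which allows a level of up to 0.258 CPM (3 counts). Ecel1, a neuronal endopeptidase gene induced by nerve injury, ranged from 0.861 to 13.2 CPM in naïve rats (median 5.54), from 2.07 to 5.48 in bPYX+GFP rats (median 3.63) and from 3.14 to 16.1 in bPYX+NT3 rats (median 6.51). Gap43, a growth cone protein gene, was even among rats, from 245.2 to 431.2 CPM over the 18 rats. Gadd45a, which encodes a protein induced by DNA damage and other stress, ranged from 40.5 to 123.8 CPM over the 18 rats, with group means of 74.3 ± 22.1 (SD, n = 6), 69.2 ± 19.8 and 73.9 ± 25.5 CPM in naïve, bPYX+GFP and bPYX+NT3 rats.

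**Figure D1:**
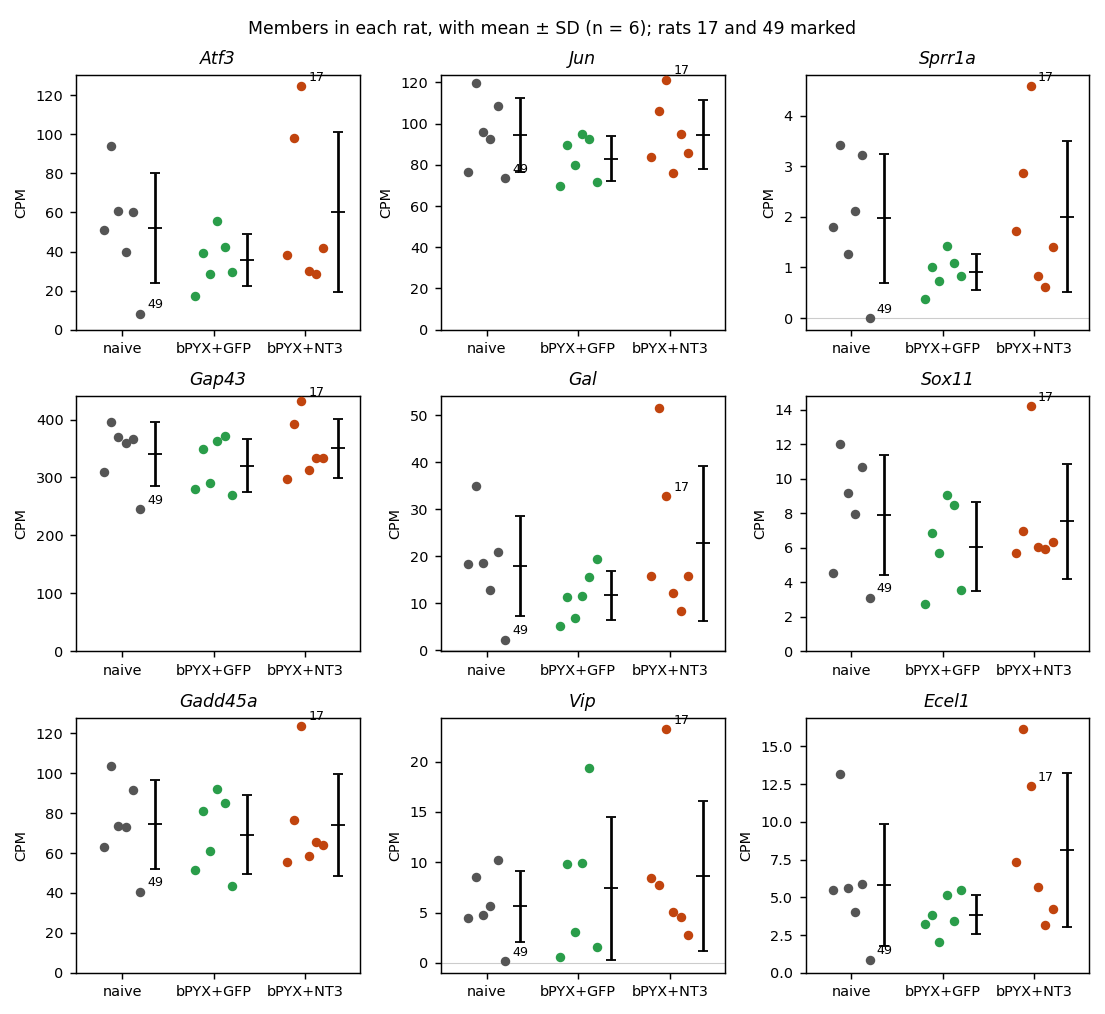
Level of the 9 detected genes (vertical axes, CPM) in each rat (points), by group, with the mean ± SD of the 6 rats beside the points. Rat 49 lies lowest of the naïve group in all 9 panels, at 8.09 CPM for Atf3, and rat 17 lies highest of the bPYX+NT3 group except for Gal and Ecel1.

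For bPYX+GFP versus naïve, the fold change was below 0 for 8 of the 9 genes and above 0 for Vip. None of the 9 passed (0 of 9) at an unadjusted p under 0.05 with the quasi-likelihood test of edgeR, which 3.25% of all 11601 genes tested did. The largest difference was that of Sprr1a, at -1.11 on the log2 scale (SE 0.536, edgeR p = 0.0575, adjusted p over all genes 0.9998, exact permutation p = 0.472). Atf3 differed by -0.56 (95% interval -1.42 to 0.30, edgeR p = 0.187, exact permutation p = 0.580), Gal by -0.62 (-1.58 to 0.34, 0.186 and 0.552) and Ecel1 by -0.59 (-1.51 to 0.32, 0.184 and 0.591). The intervals of Gap43, -0.33 to 0.16, and Jun, -0.44 to 0.07, were narrower. The likelihood ratio test gave 1 gene with p under 0.05, Sprr1a, where 72 of all 11601 genes were higher and 270 lower, and DESeq2 gave 0. Sprr1a is also listed by the study at p under 0.05 for this comparison. The median difference of the 9 genes was -0.39, against 0.01 for all genes tested.

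This count rested on 1 animal. Without naïve rat 49, 5 of the 9 genes (Atf3, Jun, Sprr1a, Gal and Ecel1) had an unadjusted p under 0.05 and all of these were lower in bPYX+GFP rats. Of all 11573 genes in that fit, 3.11% had such a p. Rat 49 was the lowest naïve rat for all 9 genes, so leaving it out raises the naïve means of the very genes tested. The p-values of this fit therefore describe its dependence on 1 rat and are no separate evidence of a difference. The 9 genes also vary together between rats (median r 0.84 over 18 rats, group means removed), so the 5 are not independent. Sprr1a then averaged 2.36 ± 0.923 CPM in the 5 remaining naïve rats against 0.911 ± 0.357 in bPYX+GFP rats. This was -1.36 on the log2 scale (SE 0.321, edgeR p = 0.00100, adjusted p = 0.606, exact permutation p = 0.00649). Atf3 averaged 61.1 ± 20.2 CPM in those naïve rats and differed by -0.78 (SE 0.261, edgeR p = 0.0107, exact permutation p = 0.0238). Gal differed by -0.85, Ecel1 by -0.81 and Jun by -0.25, and no adjusted p was under 0.05.

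For bPYX+NT3 versus naïve, 0 of 9 genes passed at that threshold with the quasi-likelihood test, the likelihood ratio test or DESeq2, and 6.01% of 11693 genes did with the first of these. The log2 fold changes lay between -0.08 for Sox11 and 0.60 for Vip, and the smallest edgeR p was 0.317, for Vip (exact permutation p = 0.442). The intervals of Jun, -0.29 to 0.29, and Gap43, -0.21 to 0.29, bound the difference most closely. Those of Gal, -0.74 to 1.41, and Sprr1a, -1.24 to 1.26, left room for a change of more than 1 on the log2 scale. The count was also 0 without rat 49.

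For bPYX+NT3 versus bPYX+GFP, 3 of 9 genes passed without adjustment, Ecel1, Sprr1a and Gal, and all were higher with NT3. Of the 11623 genes tested, 1.73% passed, and 1.08% were higher and passed. The 3 genes vary together between rats, with r of 0.94 (Gal and Ecel1), 0.90 (Sprr1a and Gal) and 0.87 (Sprr1a and Ecel1), group means removed. They are therefore not 3 independent results to set against that share. Ecel1 averaged 8.15 ± 5.08 CPM in bPYX+NT3 against 3.86 ± 1.27 in bPYX+GFP rats (SD, n = 6 each). Its log2 fold change was 1.07 (SE 0.380, edgeR p = 0.0140, exact permutation p = 0.0541), and 5 of 6 rats given NT3 exceeded the median of the bPYX+GFP group. Sprr1a differed by 1.13 (SE 0.457, edgeR p = 0.0276, exact permutation p = 0.110), with 4 of 6 rats above that median, and Gal by 0.97 (SE 0.432, edgeR p = 0.0425, exact permutation p = 0.119), with 5 of 6. Atf3 differed by 0.76 (SE 0.387, edgeR p = 0.0693, exact permutation p = 0.225). The likelihood ratio test gave 4 genes, these 3 and Atf3, where 109 of all 11623 genes were higher and 75 lower, and DESeq2 gave the same 3. The bPYX+GFP rats serve in this comparison and in that with naïve rats, so the pair of results is not independent.

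The differences were within the reach of single rats. No adjusted p was under 0.05, the smallest for these genes being 0.851 in edgeR, and no exact permutation test of the 9 genes gave an unadjusted p under 0.05. Ecel1 had an edgeR p under 0.05 whichever of the 12 rats was left out, Sprr1a in 8 of 12 fits and Gal in 6 of 12. Without rat 11, the value for Gal was 0.53, and without rat 17 that for Sprr1a was 0.72, neither with p under 0.05. The groups of the attached samples follow rat number and mix the table's groups. With them the values were -0.53 for Ecel1, -0.17 for Sprr1a and -0.17 for Gal. In each of the 3 comparisons, 0 of 9 genes then had an unadjusted edgeR p under 0.05.

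**Figure D2:**
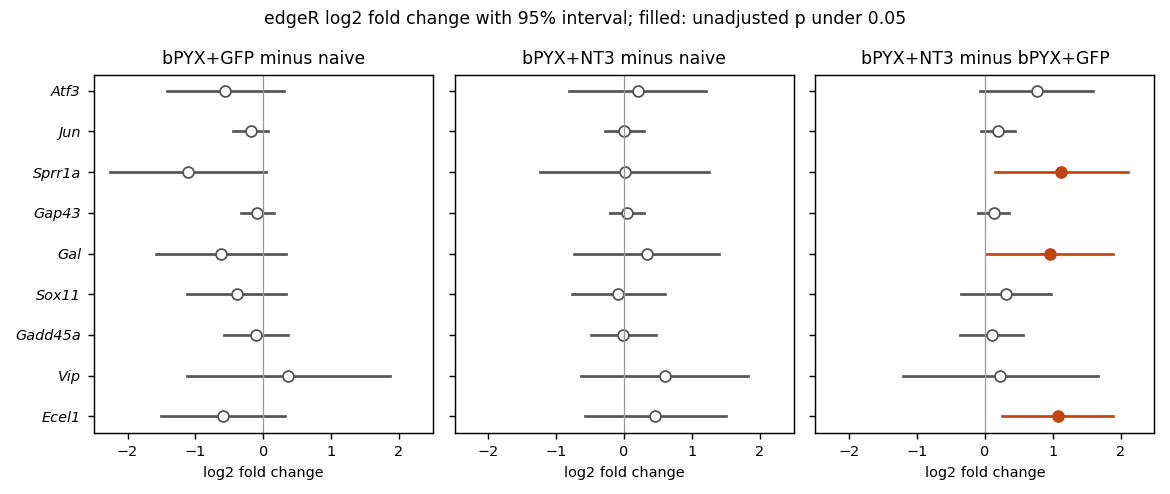
Log2 fold change of the 9 detected genes (horizontal axis) with its 95% interval in the 3 comparisons, from edgeR with 6 rats per group. Filled red points mark an unadjusted p under 0.05, which only Sprr1a (1.13), Gal (0.97) and Ecel1 (1.07) had, all for bPYX+NT3 minus bPYX+GFP.

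Rats of 1 group differed widely in several of these genes. The standard deviation of log2 CPM (prior count 2) within groups was 1.59 for Vip, 1.17 for Sprr1a, 1.03 for Gal, 0.94 for Atf3 and 0.91 for Ecel1, against a median of 0.21 over 11821 genes. These 5 genes were among the most variable, from the 99.2 percentile of all genes upwards, while Gap43 (0.22) and Jun (0.24) lay near the median. Group membership accounted for between 1.19% (Gadd45a) and 16.4% (Ecel1) of the variance of the 9 genes, with a median of 9.91% over all genes. The naïve rats, which had neither injury nor vector, also differed widely. Atf3 ranged 11.6-fold in naïve, 3.19-fold in bPYX+GFP and 4.36-fold in bPYX+NT3 rats. The naïve range rested on rat 49, at 8.09 CPM, and the other 5 naïve rats lay between 39.9 and 93.9 CPM. The fold ranges therefore do not show that naïve rats in general were the most variable. In 27 exact permutation tests of the mean absolute deviation from the group median, 0 had an unadjusted p under 0.05, the smallest being 0.113 for Vip in bPYX+NT3 versus bPYX+GFP (adjusted p = 0.960). With 6 rats per group these tests do not show that the spreads were equal.

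Many rats lay on the same side of their group mean for most of the 9 genes. Rat 49 was below its group mean for all 9 genes and the lowest of the 18 rats for 7 of them, and rat 5 was the lowest for the other 2. Rat 17 was above its group mean for all 9 genes and the highest of all rats for 7, and rat 11 was the highest for Gal and Ecel1. Rats 42, 45, 15 and 21 were also above their group mean for all 9 genes, and rats 5, 23 and 40 below it for all 9. Other rats were mixed. Rats 41 and 44 were above the mean for 5 genes and below it for 4. Rat 57 was above it for Gal (0.86 on the log2 scale) and Ecel1 (0.56), at the highest level of its group for both, and below it for the other 7, with -1.36 for Vip and -0.62 for Gadd45a.

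**Figure D3:**
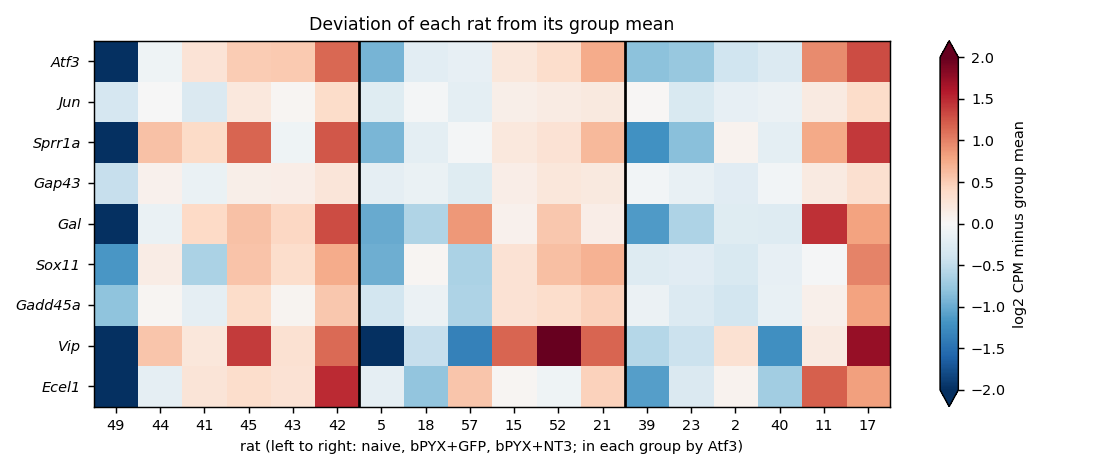
Deviation of log2 CPM from the group mean (colour, red above and blue below, cut off at 2 in either direction) for the 9 detected genes in each of the 18 rats, ordered within each group by Atf3. Rat 49 is blue and rats 42 and 17 are red for all 9 genes, while rat 57 is red for Gal and Ecel1 and blue for the other 7.

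With group means removed, Pearson r over the 18 rats was positive in all 36 pairs of the 9 genes, from 0.58 (Sox11 and Ecel1) to 0.96 (Gap43 and Gadd45a), with a median of 0.84. In permutations of the rats within groups, p was between 1e-05, the smallest that 100000 resamples can give, and 0.0190, and p adjusted over the 36 pairs was under 0.05 in all of them. Spearman rho ran from 0.53 to 0.96, with permutation p up to 0.0320, also after adjustment. Rats vary together for many genes in these libraries, since 17.5% of all 69862110 pairs of tested genes had an r at or above the lowest of the 36, and 4.79% had one at or above the median of the 36. The count is to be read against that share.

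The same comparison was made for each member on its own. Atf3 had r of 0.94 with Sprr1a (Spearman rho 0.90), 0.92 with Gal (0.88), 0.89 with Ecel1 (0.85), 0.88 with Gap43 (0.86) and 0.81 with Jun (0.83), and 0.592% of 11820 genes reached the lowest of its 8 values. The share of genes at or above the lowest value was 1.05% for Sprr1a, 1.46% for Gap43, 1.58% for Vip, 2.26% for Jun, 2.99% for Gadd45a and 3.68% for Sox11. Gal and Ecel1 stood less apart. For Gal 6.43% of genes were at or above its lowest value and 2.22% at or above its median, and for Ecel1 15.9% and 7.39%. Gap43, Gadd45a, Sox11 and Jun had r between 0.91 and 0.96 in all their pairs, and Gal had r of 0.94 with Ecel1. The 8 lowest values each joined Ecel1 or Gal to Jun, Gap43, Sox11, Gadd45a or Vip.

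**Figure D4:**
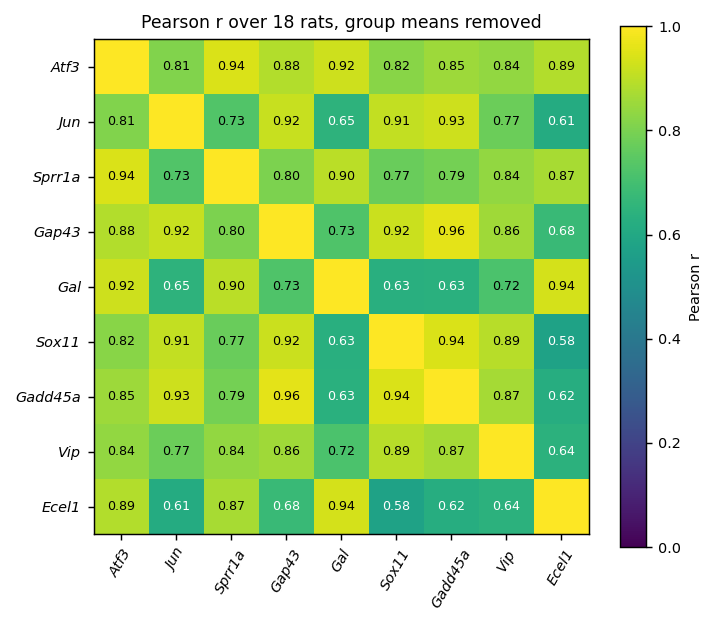
Pearson r of log2 CPM, with group means removed, for each pair of the 9 detected genes over 18 rats (colour and number). All values are positive, from 0.58 to 0.96, and the row of Ecel1 is lowest outside its pairs with Atf3, Sprr1a and Gal.

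The correlations were present in each group of 6 rats, though unevenly. In naïve rats r ran from 0.74 to 1.00 with a median of 0.93, in bPYX+GFP rats from 0.02 to 0.99 with a median of 0.81, and in bPYX+NT3 rats from 0.55 to 0.97 with a median of 0.78. The lowest values in bPYX+GFP rats were those of Ecel1 with Gadd45a (0.02), Sox11 (0.05), Jun (0.11), Vip (0.12) and Gap43 (0.15), and of Gal with Gadd45a (0.12). Gal was also low there with Gap43 (0.30), Jun (0.34) and Sox11 (0.37). When the 2 rats farthest from the median of the first gene of each pair were left out, r ran from 0.33 to 0.94 with a median of 0.76, and was above 0 in all 36 pairs. Without rat 49 alone, r ran from 0.36 to 0.94, and 27 of the 36 pairs had an adjusted p under 0.05. With the groups of the attached samples, r ran from 0.58 to 0.95 and 36 pairs passed.

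Measures of library and cell content were examined in the same way. Over 16 measures, the number of genes with reads had r = 0.64 with Atf3 (permutation p = 0.00722, adjusted p = 0.116, Spearman rho = 0.63, permutation p = 0.00732, adjusted p = 0.117, and r = 0.59 without rats 49 and 17). The summed macrophage markers had r = 0.58 (permutation p = 0.0167, adjusted p = 0.134, Spearman rho = 0.55, permutation p = 0.0259, adjusted p = 0.208, and r = 0.42 without these rats). The no-feature share of the reads had r = -0.48 (permutation p = 0.0515, adjusted p = 0.275, Spearman rho = -0.51, permutation p = 0.0418, adjusted p = 0.223). The summed sensory neuron markers had r = -0.23 (permutation p = 0.375, adjusted p = 0.545, Spearman rho = -0.31, permutation p = 0.236). That sum holds Nefm and Nefh, which fall after axotomy, so its r does not concern neuron content alone. None of the 16 measures had an adjusted p under 0.05.

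Macrophage markers (5 of 5 in the table, none with a median of 0) summed to 54.8 to 110.6 CPM in naïve, 41.9 to 83.1 in bPYX+GFP and 51.5 to 120.2 in bPYX+NT3 rats. With the macrophage sum also removed, the 36 correlations ran from 0.46 to 0.95 with a median of 0.80, and 33 had an adjusted p under 0.05. With the number of genes with reads removed they ran from 0.53 to 0.95, with the reads on genes removed from 0.52 to 0.95, and with the neuron markers removed from 0.67 to 0.99, and all 36 passed. Because the neuron sum holds genes that fall after axotomy, removing it does not show the correlations at equal neuron content. Markers of squamous epithelium, in which Sprr1a is also expressed, summed to between 0.302 and 1.30 CPM over all rats (4 of 6 in the table, Krt14 with a median of 0), with r = 0.23 with Atf3 (permutation p = 0.454, adjusted p = 0.606, Spearman rho = 0.14, permutation p = 0.622, adjusted p = 0.765). Summed markers of myelinating Schwann cells differed between groups, with medians of 4341, 3550 and 3635 CPM in naïve, bPYX+GFP and bPYX+NT3 rats (exact permutation p = 0.0152 against naïve for each). Fibroblast markers had medians of 2658, 2293 and 2015 CPM in the same order (exact permutation p = 0.0346 and 0.0390 against naïve). Skeletal muscle markers had medians of 5.54, 10.3 and 8.5 CPM (exact permutation p = 0.0693 and 0.0390 against naïve). These p-values are not adjusted, and the part of these cells in the group comparisons was not tested. None of the 3 sums had an exact p under 0.05 for bPYX+NT3 versus bPYX+GFP.

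The same pattern was looked for in the other genes known to respond to axotomy. A list of 50 genes that rise after axotomy and a list of 30 that fall, none of them among the 10, had 40 and 26 genes with enough reads. The lists were drawn up with earlier results of these data known, and the study had already reported Arg1 and Cdkn1a as changed in these rats. The correlation with Atf3 was chosen after the values were seen. The counts below are therefore descriptions and not an independent test. With Atf3 over 18 rats, 14 of the 40 genes that rise after axotomy had a positive r with an adjusted p under 0.05, against 0.838% of all 11820 genes, and 0 had a negative one, against 0.0508%. The median r was 0.61 for the 40 genes and 0.04 for all genes. Of the 26 genes that fall after axotomy, 0 passed in either direction, although without rat 49 6 of them had a negative r with an unadjusted permutation p under 0.05, against 3.88% of all genes. Their median r over the 18 rats was -0.31. Without rat 49, 6 of the 40 passed against 0.186% of all genes, with a median r of 0.52. Without rats 49 and 17, the values farthest from the median of Atf3, the medians were 0.47 for the 40 and -0.25 for the 26.

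The 14 genes took in several roles. Ankrd1, a transcriptional cofactor, had r = 0.96 with Atf3 (Spearman rho 0.94) and ranged from 0.517 to 13.0 CPM. Cacna2d1, the calcium channel subunit that binds gabapentin, had r = 0.94 (rho 0.89) and ranged from 14.5 to 50.1 CPM. The cholecystokinin receptor gene Cckbr had r = 0.92, the cytokine gene Il6 0.91, the arginase gene Arg1 0.89 and the regenerating-protein gene Reg3b 0.88. More abundant genes also followed, with r = 0.89 for Gfra1, the GDNF co-receptor gene, at 285.6 to 444.2 CPM, 0.88 for Flrt3 at 54.5 to 204.0 CPM and 0.86 for Smad1 at 52.5 to 81.4 CPM. Gch1 (0.88), Nos1 (0.86), Csf1 (0.83), Tubb2b (0.82) and Mmp16 (0.74) made up the rest. Not every listed gene followed: Crh had r = -0.64 (permutation p = 0.0188, adjusted p = 0.248) and Gpr151 r = -0.31. Among the genes that fall after axotomy, Scn11a, a sodium channel gene of nociceptors, had r = -0.72 (adjusted p = 0.142) and the neurofilament gene Nefm r = -0.62 (adjusted p = 0.275). The identifier counted for Calca had r = 0.66 (adjusted p = 0.248). It lay at only 1.55 to 5.95 CPM, and whether it covers the CGRP transcript of that gene is not known here.

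**Figure D5:**
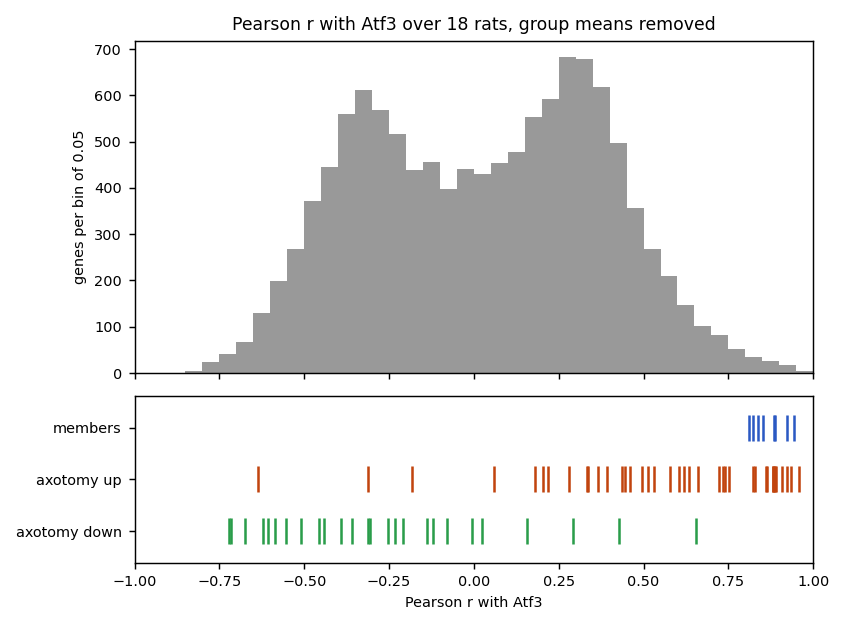
Pearson r with Atf3 over 18 rats, group means removed: the upper panel counts 11820 tested genes in bins of 0.05, and the lower panel marks the other 8 detected members, 40 genes that rise and 26 that fall after axotomy. All genes form broad humps on either side of 0, the members lie between 0.81 and 0.94, and the genes that rise after axotomy lie mostly to the right, with a median of 0.61.

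Few genes of these lists passed in the group comparisons. For bPYX+GFP versus naïve 1 of the 40 genes was higher and 2 were lower at an unadjusted p under 0.05, and 0 of the 26 passed. Of all genes 0.733% were higher and 2.52% lower at that threshold. Arg1, which encodes the enzyme that splits arginine, was lower by 1.01 on the log2 scale (log2 fold change -1.01, SE 0.354, edgeR p = 0.0128, exact permutation p = 0.0952), and the cell cycle inhibitor gene Cdkn1a by 0.45 (-0.45, SE 0.176, edgeR p = 0.0230, exact permutation p = 0.0628). Lmo7 was higher, with a log2 fold change of 0.38 (SE 0.170, edgeR p = 0.0412, exact permutation p = 0.0476).

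For bPYX+NT3 versus naïve 0 of the 40 and 2 of the 26 genes passed, where 6.01% of all genes did, so the count of 2 is near that share. Calcb, which encodes a CGRP peptide, was higher with 101.9 ± 5.74 CPM against 85.5 ± 6.55, a log2 fold change of 0.25 (SE 0.062, edgeR p = 0.00122, exact permutation p = 0.00433), and the opioid receptor gene Oprm1 was lower (-0.51, SE 0.229, edgeR p = 0.0444, exact permutation p = 0.0801). For bPYX+NT3 versus bPYX+GFP 2 of the 40 were higher and 2 of the 26 lower, where 1.08% and 0.654% of all genes were. Arg1 lay between 4.21 and 14.5 CPM in bPYX+NT3 and between 2.27 and 4.15 CPM in bPYX+GFP rats. The measured values did not overlap, but the nearest were 4.21 CPM (55 reads, rat 39) and 4.15 CPM (42 reads, rat 52). That gap is within counting error, so the separation of the groups is not secure. The share of all genes whose groups stood apart was not counted, and Arg1 is named here for its low edgeR p. Its log2 fold change was 1.10 (SE 0.316, edgeR p = 0.00393, exact permutation p = 0.00216, the smallest that 6 rats against 6 allow). Nos1, the neuronal nitric oxide synthase gene, was higher by 0.88 (SE 0.345, edgeR p = 0.0240, exact permutation p = 0.0563). Oprm1 differed by -0.72 (SE 0.268, edgeR p = 0.0184, exact permutation p = 0.0628) and the potassium channel gene Kcna2 by -0.24 (SE 0.110, edgeR p = 0.0471, exact permutation p = 0.0714). No adjusted p of a listed gene was under 0.05.

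The 3 genes whose pattern over the 18 rats was most like that of Atf3, Sprr1a, Gal and Vip are named for each, and most of them were scarce. For Atf3 they were an identifier without a symbol in the reference, NM_001108834, with r = 0.97, the transglutaminase gene Tgm1 (0.97) and the receptor phosphatase gene Ptprh (0.97). Ptprh ranged from 0.689 CPM in rat 49 to 20.8 in rat 17, and Tgm1 from 0.258 in rat 49 to 13.0 in rat 11. For Sprr1a the closest were Crisp3 (0.97), Hpd (0.95) and Ptprh (0.95), for Gal Ptprh (0.96), the muscle LIM protein gene Csrp3 (0.96) and NM_001108834 (0.96), and for Vip Crisp3 (0.92), Mmd (0.92) and Vtcn1 (0.92). Ptprh thus stood among the nearest 3 for Atf3, Sprr1a and Gal. No gene is given for Npy, which had 1 read.

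Because the members moved together, their promoters were searched for the letters that the products of Jun and Atf3 are known to bind, TGANTCA and TGACGTCA, each of which reads the same on both strands. RefSeq promoters of the GRCr8 assembly were at hand for 7 of the 10 genes (Sprr1a, Gal, Vip, Npy, Sox11, Gadd45a and Ecel1), and the 250 bases before each start site were read. TGANTCA was found in 1 of 7, Sprr1a, and in 6.36% of 27457 promoters, and TGACGTCA in 0 of 7 and in 1.7% of all promoters. Sprr1a held TGANTCA at 2 places, beginning 147 and 117 bases before the start site. The stretch is shown because it is the only member promoter with a match, on the minus strand at chr2:180752626-180752875, with the matches in capitals:
Sprr1a: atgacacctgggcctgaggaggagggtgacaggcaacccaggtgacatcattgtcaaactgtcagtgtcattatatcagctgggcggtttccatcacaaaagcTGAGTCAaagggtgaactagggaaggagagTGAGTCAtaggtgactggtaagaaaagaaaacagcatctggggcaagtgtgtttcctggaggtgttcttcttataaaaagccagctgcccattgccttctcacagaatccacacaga
A match of letters is a description of the sequence, and no binding was measured here.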

How the data were processed

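Poly(A) RNA was sequenced as 50 bp paired-end reads. The authors aligned them to Rnor_6.0 (rn6) with TopHat2, used Picard on duplicate reads, obtained a count for each RefSeq identifier from HTSeq and deposited raw counts, which are not normalized. The stranded kit is stated, the strand setting of the counting is not given in the sources used here, and reads on overlapping or near-identical genes are uncertain. The submitters' processing notes also name bcl2fastq 1.8.4. Reads assigned to no feature (30.9% to 34.6% of the counted total per rat) were left out of library sizes. With between 13428 and 13873 genes with reads per rat, counting error is large for genes near 10 reads. Symbols were matched by RefSeq identifier for 14193 of 15075 identifiers.

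Each pair of groups was fitted in edgeR 4.0.16 (R 4.3.3, TMM, glmQLFit, glmQLFTest) over genes that exceeded 10 reads in 6 or more of the 12 rats. Benjamini-Hochberg adjustment was over all genes, and an unadjusted p under 0.05 is called, which is the study's threshold. The quasi-likelihood test was chosen here, whereas the study's small RNA results give a likelihood ratio. The SE is the absolute log2 fold change divided by the root of F. For single genes, group means were compared by a two-sided exact permutation of log2 CPM (prior count 2), and correlations by 100000 two-sided permutations of rats within groups (Python 3.11.15, numpy 2.4.6, scipy 1.17.1, pandas 2.3.3, matplotlib 3.10.9). Because Npy had 1 read, 36 of 45 planned pairs and 27 of 30 planned spread tests were run. Both scripts were tested on simulated data.

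The genes described and the lists were chosen with earlier results of these data known. Named genes are the 10 genes, up to 10 per axotomy list with an unadjusted p under 0.05 in a comparison, and the 3 genes most like Atf3, Sprr1a, Gal, Npy and Vip. The correlation of all genes with Atf3, and the genes named from it, were chosen after the values were seen. Alternatives were DESeq2 1.42.0, the likelihood ratio test, other scalings, filters and groups, covariates and leaving out each rat.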

Additional observations from a re-analysis of the deposited data

Results flagged for a closer look

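In 5 of 27 sets of 6 rats (9 genes in 3 groups), the gap between an extreme rat and the next exceeded 0.625 of the range on the log2 CPM scale, Dixon's critical value for 6 samples, where chance gives about 1 in 20. The sets share rats and their genes are correlated, so the flags are not independent. In naïve rat 49, Atf3 was 8.09 CPM against 39.9 to 93.9 in the other 5 naïve rats, Sprr1a was 0 against 1.26 to 3.41, Gal was 2.24 against 12.7 to 34.8 and Vip was 0.172 against 4.47 to 10.3. In bPYX+NT3 rat 17, Sox11 was 14.2 CPM against 5.70 to 6.95 in the other 5.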

How the results depend on the processing

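The number of the 9 genes with an unadjusted p under 0.05 was 0 between bPYX+NT3 and naïve rats under every alternative run. Between bPYX+GFP and naïve rats it was 0, and became 1 with the likelihood ratio test (all genes: 72 higher and 270 lower of 11601). It was also 1 with a no-feature covariate (280 and 566 of 11601). When 1 rat was left out it ran from 0 to 5, with 5 without rat 49 (3.11% of all genes). For bPYX+NT3 versus bPYX+GFP it was 3, and became 4 with the likelihood ratio test, which added Atf3 (all genes: 109 higher and 75 lower of 11623). It was 3 with DESeq2 (122 and 89 of 11623). It became 1 in 1 fit over the 3 groups (all genes: 156 higher and 110 lower of 11821). It was also 1 with that covariate (130 and 93 of 11623) and 0 with the groups of the attached samples. When 1 rat was left out it ran from 1 to 5 (1 without rats 5, 18, 11 or 17, 5 without rat 23). Of all genes, 63 were higher and 32 lower of 11551 without rat 11, and 193 and 197 of 11597 without rat 23. With the attached groups the log2 fold changes turned to -0.17 (Sprr1a), -0.17 (Gal) and -0.53 (Ecel1), and with these groups and a replicate block to -0.27, -0.19 and -0.53, again with 0 genes under 0.05. These attached groups follow rat number and mix rats of the table's groups, so they do not compare the treatments.

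For the 66 genes of the other axotomy lists the number was 3 between bPYX+GFP and naïve rats (all genes 3.25%). It was 5 with the no-feature covariate (all genes: 280 higher and 566 lower of 11601). With 1 rat left out it was 2 to 7 (7 without rat 49, all genes 3.11%). Between bPYX+NT3 and naïve rats it was 2 (all genes 6.01%). It was 4 with the likelihood ratio test, DESeq2 (459 and 360 of 11693), DESeq2 size factors or no filter, and 1 with the covariate (212 and 267). With 1 rat left out it was 1 to 7 (7 without rat 23, 840 and 547 of 11670). Between the injured groups it was 4 (all genes 1.73%), 8 with DESeq2 (122 and 89 of 11623) and 1 with the attached groups (135 and 128 of 11646). With 1 rat left out it was 2 to 15, with 15 without rat 57, or 22.7% of the 66 where 19.8% of all genes passed. The exact tests called 0 genes, and from 0 to 4 with 1 rat left out, the 4 without rat 49 being Atf3, Sprr1a, Gal and Ecel1 between bPYX+GFP and naïve rats. The spread tests called 0 in all settings. All 36 pairs were correlated with other scaling, prior count or grouping, and 27 to 36 with 1 rat left out.

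The titles give groups the same replicate numbers. Same-numbered rats did not deviate together in every pair. The correlation of their deviations over all genes was above 0.1 in 10 of 18 pairs of rats, including 5 of the 6 pairs of bPYX+NT3 and naïve rats (0.29 to 0.53, the other -0.30), and in 9 of 36 cases a rat correlated best with its own number in another group. With the number as a replicate block, 1, 0 and 0 of the 9 genes passed in the order bPYX+GFP to naïve, bPYX+NT3 to naïve and bPYX+NT3 to bPYX+GFP, and 4, 13 and 4 listed genes (6.06%, 19.7% and 6.06%, where 2.72%, 25.3% and 1.12% of all genes passed). With the attached groups and the replicate block, 1, 4 and 3 listed genes passed. All genes passing there were 47 higher and 44 lower of 11686, 34 and 165 of 11599, and 109 and 154 of 11646, in the same order. The block, the covariates of the correlations and the attached groups there were chosen after seeing the data. Depth limits Npy, with 1 read in 18 rats, and the low values of Sprr1a, Vip and Ecel1, with 0, 2 and 10 reads in rat 49.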
